A study of Mus musculus with 12 samples.

Results

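The matrix metalloproteinase genes and their tissue inhibitors were examined in sorted sensory neurons of the mouse trigeminal ganglion that innervate the tongue. The set held 10 genes taken by name out of 22609 in the count files, which were the 4 Timp genes (Timp1, Timp2, Timp3 and Timp4) and 6 Mmp genes (Mmp2, Mmp9, Mmp14, Mmp16, Mmp17 and Mmp24). No measured value entered the choice of the genes, although earlier results of these libraries were known when the set was drawn up. All mice were athymic nude mice on the Balb/c background, which lack mature T cells and keep neutrophils, macrophages and natural killer cells. The 12 RNA-seq libraries came from males without tumor (MN), males with tumor (MT), females without tumor (FN) and females with tumor (FT), with 3 libraries per group. Tongue tumors were grown from HSC3 cells, a line of human squamous cell carcinoma of the mouth, and ganglia were taken on day 15 after inoculation. The labels state that normal mice were given no cells, whereas the study's methods text describes an injection of normal human oral keratinocytes, and the files do not settle which is right. A retrograde dye, WGA-488, was placed in the tongue of every mouse on day 13, and the bright cells were sorted. Each library pooled 4 ganglia, from 2 mice in the normal groups and 4 in the tumor groups, where only the tumor side was collected. The groups therefore also differed in the number of mice and in the side of the ganglia, and neither can be told apart from the tumor. The labels give no age for any group.

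Matrix metalloproteinases are zinc enzymes that cut proteins of the extracellular matrix and of the cell surface. Some are secreted, such as the gelatinases Mmp2 and Mmp9, and others are held at the cell membrane. Of the latter, Mmp14 and Mmp16 cross the membrane and can activate the Mmp2 precursor, Mmp17 is fixed by a lipid anchor, and Mmp24 crosses the membrane and is known from nervous tissue. The Timp proteins block the enzymes by fitting their first residues into the catalytic site. Timp1, Timp2 and Timp4 are soluble, and Timp3 binds to the matrix and also blocks several ADAM enzymes.

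The sequences that define the families are the catalytic zinc site of the enzymes and the first bases of the mature inhibitors, and they are shown because the inhibitor enters that site with exactly this end. Both were taken from the coding sequence of the longest GENCODE M1 transcript (mouse build NCBIM37, also called mm9), read 5′ to 3′. In the Mmp genes the capitals mark the codons of the 3 histidines that hold the zinc ion and of the catalytic glutamate, at fixed places in each stretch of 33 bases.
Mmp2: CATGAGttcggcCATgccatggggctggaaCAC
Mmp9: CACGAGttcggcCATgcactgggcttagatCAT
Mmp14: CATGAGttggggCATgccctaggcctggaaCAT
Mmp16: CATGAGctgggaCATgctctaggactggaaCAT
Mmp17: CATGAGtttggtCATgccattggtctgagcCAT
Mmp24: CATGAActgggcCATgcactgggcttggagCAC
The most alike pair was Mmp14 and Mmp16, with 29 of 33 bases identical, and the least alike was Mmp17 and Mmp24, with 20 of 33. In the Timp genes the capitals mark the codons of the first 2 cysteines of the mature protein in a stretch of 24 bases, where Timp1 and Timp3 shared 13 bases and Timp4 shared 18 with Timp1 and with Timp2.
Timp1: TGTagcTGTgccccaccccaccca
Timp2: TGCagcTGCtccccggtgcacccg
Timp3: TGCacaTGCtctcccagccatccc
Timp4: TGCagcTGTgcgcctgcgcacccc

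Reads on genes numbered between 4592891 and 8922011 per library. FN2, FT2 and FT3 stood apart from the other 9 libraries, with 52.6% to 68.4% of all reads multimapped against 43.0% to 45.5%. All 14 sensory neuron markers had more than 3 reads in every library, and their summed level ran from 17373 to 28131 CPM (counts scaled to the same total of reads on genes in each library). Within that sum 4 of the 14 were lower in FN2, FT2 and FT3 than in each of the other libraries, beside 25.8% of all genes tested. The count is near that share. These were Pirt, Avil, Scn10a and Trpv1, with Trpv1 at 5.44 to 35.1 CPM against 150 to 263 CPM. Calca had 11272 CPM in FN2, 3242 CPM in FT2 and 7157 CPM in FT3. Its highest value in the 9 libraries was 4589 CPM in MT1. The 8 satellite glia markers summed to 3557 to 8253 CPM in the 9 libraries and to 7891 to 17940 CPM in FN2, FT2 and FT3. Apoe, at 7135 to 15893 CPM there, led the sum. It was the only marker of that list above all other libraries, beside 9.19% of all genes tested. In libraries made from pooled cells, fewer cells of a type and less RNA per cell cannot be told apart. The results below are given over all 12 libraries, and without the libraries that stood apart where a value rests on them.

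The inhibitors were more abundant than the enzymes in every library. Levels between genes are compared as RPKM, the CPM of a gene per kilobase of its exons. The 4 Timp genes together had 5.81 to 9.23 times the RPKM of the 6 Mmp genes in the 9 libraries, and 6.09 to 14.7 times in FN2, FT2 and FT3. Timp2 had the highest level of the set with 114 ± 58.7 RPKM (SD, n = 12), followed by Timp3 with 59.8 ± 30.3 RPKM and Timp1 with 32.9 ± 22.0 RPKM. These neighbours overlapped, since Timp2 ranked first in 8 libraries, Timp3 in 3 (MT3, FN1 and FN3) and Timp1 in 1 (FT3). Mmp14 had 12.7 ± 3.25 RPKM and Mmp24 8.85 ± 0.918 RPKM, and Mmp14 was the highest enzyme of the set in 11 of 12 libraries. Mmp16 followed with 4.50 ± 0.494 RPKM in the 9 libraries (SD, n = 9). Timp4, Mmp17, Mmp2 and Mmp9 stayed at or below 2.76 RPKM in all 12 libraries, and their order varied from library to library.

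**Figure D1:**
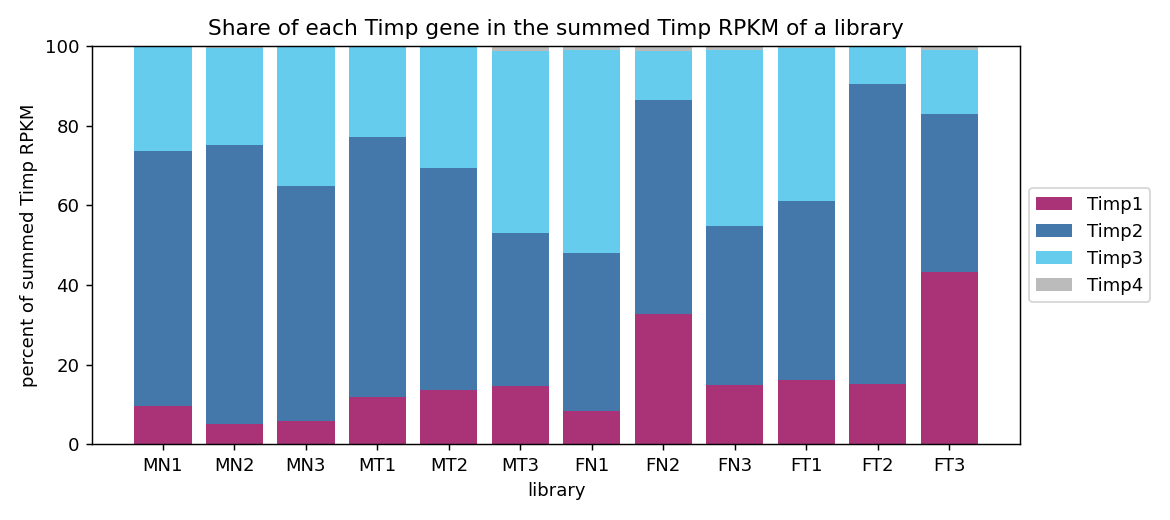
Share of each Timp gene (percent, vertical axis) in the summed Timp RPKM of each of the 12 libraries (horizontal axis). Timp1 made up 5.05% to 16.0% in the 9 libraries and 15.2% to 43.2% in FN2, FT2 and FT3, where Timp3 was at 9.42% to 16.0%.

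Timp1, the soluble inhibitor known to be induced in injured and inflamed tissue, lies on chromosome X from 20447292 to 20451861 (mm9, plus strand). It was lowest in the male normal libraries, and each of the 9 libraries outside MN was above each MN library. That contrast mixes sex and tumor, and the share of all genes with such a pattern was not counted. Between pairs of groups, 19.8% of genes did not overlap in FN versus MN and 13.1% in MT versus MN, in either direction. Timp1 had 14.3, 7.17 and 9.64 CPM in MN1 to MN3 and 19.9, 22.4 and 26.5 CPM in MT1 to MT3. It had 16.8, 59.8 and 31.0 CPM in FN1 to FN3 and 25.5, 52.7 and 65.3 CPM in FT1 to FT3. The 3 highest values were those of FN2, FT2 and FT3, at 52.7 to 65.3 CPM, and the FN and FT libraries overlapped.

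In the edgeR fit over 12 libraries the log2 fold change of Timp1 from MN to FN was 1.99 (SE 0.55, unadjusted p = 0.00272, adjusted p = 0.81). Leaving out FN2 lowered it to 1.17, and the groups still did not overlap. With FN1, FN3 and the MN libraries fitted alone it was 1.16 (SE 0.29, edgeR adjusted p = 0.0345). Between the tumor groups, FT exceeded MT by 1.26 on the log2 scale (SE 0.53, unadjusted p = 0.0329, edgeR adjusted p = 0.379), but FT1 lay within the MT range, and over the 9 libraries, where FT1 is the lone FT library, the value was 0.10 (SE 0.36). Within the males the log2 fold change from MN to MT was 1.16 over 12 libraries (SE 0.54, edgeR unadjusted p = 0.0493) and 1.17 over 9. It did not pass the adjusted threshold in the 12-library fit. With DESeq2 size factors as the scaling, the edgeR unadjusted p was 0.0602. Without MN2 the log2 fold change was 0.96 (edgeR unadjusted p = 0.15). The tumor effect averaged over the sexes was 0.80 (SE 0.38, unadjusted p = 0.0522, edgeR adjusted p = 1). The difference between the sexes in the tumor effect, female minus male, was -0.72 (SE 0.75, edgeR adjusted p = 1). It was -1.07 over the 9 libraries (SE 0.47, unadjusted p = 0.0443, edgeR adjusted p = 0.959) -0.10 over the 10 libraries without FN2 and FT2, and 0.09 without FN2 alone, so its size varied with the libraries kept.

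Some fibroblast markers moved with Timp1, though not these alone. The 10 markers summed to 162 to 224 CPM in MN, 252 to 450 CPM in MT, 392 to 1236 CPM in FN and 533 to 1136 CPM in FT, and all 10 were above 3 counts in at least 1 library. The sum was led by Apod, which had 67.2 to 85.7 CPM in MN and 130 to 256 CPM in MT. Apod was the only marker of the list above MN in each MT library, while Col1a1 was below MN in each. Over all genes tested 13.1% did not overlap between MT and MN. With each marker weighted equally, as a mean log2 difference from MN, the list ran from -0.25 to 0.26 in MN, -0.28 to 0.70 in MT, 0.28 to 1.06 in FN and 0.37 to 1.10 in FT, so MT and MN overlapped. Of the 36 pairs of libraries among the 9, 31 were in the same order by Timp1 and by the fibroblast sum, and 26 by the mean log2. The endothelial list had 28 by the sum and 27 by the mean log2, and the pericyte and smooth muscle list 28 and 26. The part of RNA from fibroblasts or these other cells in the Timp1 values was not tested. Timp1 lies within Syn1, which is on the opposite strand and shares none of its 888 exon bases. The counting strand is not stated, so reads from unspliced Syn1 RNA and from Timp1 cannot be told apart. Syn1, a synaptic vesicle gene of neurons, had 637 to 834 CPM in the 9 libraries and 121 to 324 CPM in FN2, FT2 and FT3, where Timp1 was highest.

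The 5 genes whose pattern was nearest to Timp1 over the 12 libraries were Mustn1, Fam46a, S100a11, Cd63 and Gng11. Their root mean square differences from Timp1, on log2 CPM centred for each gene, were 0.33 for Mustn1, 0.43 for Fam46a, S100a11 and Cd63, and 0.44 for Gng11. The median over the 13834 other genes was 1.17. The likeness includes the high values in FN2, FT2 and FT3, where S100a11 had 78.5 to 143 CPM against 26.3 to 46.5 CPM in the 9 libraries.

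Timp3, the inhibitor bound to the matrix (chromosome 10, 85763117 to 85812251, mm9, plus strand), varied most in the female libraries. It had 360, 316 and 531 CPM in MN1 to MN3 and 346, 461 and 759 CPM in MT1 to MT3. It had 947, 205 and 840 CPM in FN1 to FN3 and 562, 299 and 221 CPM in FT1 to FT3. FN1 and FN3 were the 2 highest of all libraries, and FN2, FT2 and FT3 were the 3 lowest. FN and MN therefore overlapped through FN2 alone.

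The log2 fold change of Timp3 from MN to FN was 0.74 over 12 libraries (SE 0.48, edgeR adjusted p = 0.81). It was 1.12 without FN2 in the fit of 4 groups (SE 0.39, edgeR adjusted p = 1). With FN1, FN3 and the MN libraries alone it was 1.10 (SE 0.16, edgeR adjusted p = 0.0017). The tumor effect was 0.38 in males (SE 0.48) and -0.75 in females (SE 0.48, edgeR adjusted p = 0.994), with overlapping groups in both. The difference between the sexes was -1.13 (SE 0.68, edgeR adjusted p = 1) and, over the 9 libraries with FT1 as the lone FT library, -1.04 (SE 0.43, unadjusted p = 0.0311, edgeR adjusted p = 0.959).

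Endothelial markers followed nearly the same order as Timp3 in the 9 libraries. Among the 9 libraries, 35 of 36 pairs were in the same order by Timp3 and by the summed CPM of the 10 endothelial markers, the highest count of the 80 combinations of a member and a marker list that were looked at. By the mean log2 of the list it was 34 of 36. Among these libraries Timp3 was lowest in MN2, with 316 CPM beside an endothelial sum of 439 CPM, and highest in FN1, with 947 CPM beside 1346 CPM. FN1 and FN3 had endothelial sums of 1346 and 1376 CPM, above the MN range of 439 to 1046 CPM. The difference between FN and MN moved with these markers, but not with them alone. Satellite glia sums in FN1 and FN3 were 8253 and 8184 CPM, above the MN range of 4163 to 4998 CPM. By the satellite glia sum 31 of 36 pairs were in the order of Timp3, and by the macrophage and pericyte sums 29 each. FN2 and FT3, with 205 and 221 CPM of Timp3, had endothelial sums of 951 and 1202 CPM, led by Cldn5. Of the 10 markers 2, Pecam1 and Tek, were below all other libraries in FN2, FT2 and FT3, beside 25.8% of all genes tested. Pecam1 was there at 4.79 to 15.6 CPM against 43.9 to 163 CPM in the 9 libraries. Tek was at 2.83 to 6.83 CPM against 9.43 to 53.6 CPM. Others were not low in each. Egfl7 had 199 CPM in FN2, 60.5 CPM in FT2 and 181 CPM in FT3. Its highest value in the 9 libraries was 160 CPM in FN3. The mean log2 of the endothelial list, as a difference from MN, was -1.93 to -0.24 in FN2, FT2 and FT3. The part of RNA from endothelial or these other cells in the Timp3 values was not tested. Timp3 lies within Syn3 on the opposite strand, and 1733 of its 8144 exon bases are shared. Reads in that stretch cannot be assigned without strand. Syn3 had 5.44 to 12.9 CPM in all libraries.

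**Figure D2:**
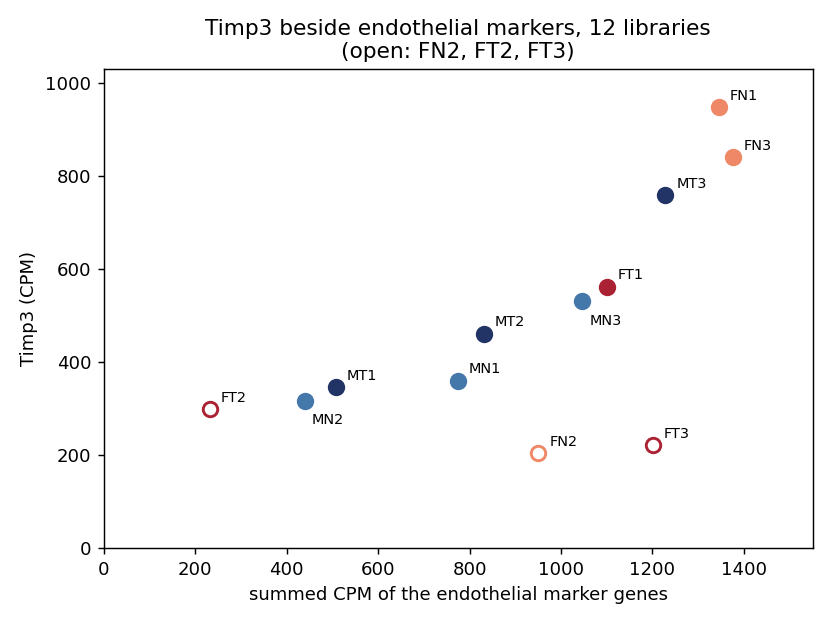
Timp3 (CPM, vertical axis) against the summed CPM of 10 endothelial marker genes (horizontal axis), 1 point per library, with FN2, FT2 and FT3 open. The 9 filled points run from lower left to upper right between 316 and 947 CPM of Timp3, and the open points lie at 205 to 299 CPM.

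Timp2, the inhibitor that also takes part in the activation of Mmp2 by Mmp14, was high and even in all but 1 library (chromosome 11, 118162383 to 118217054, mm9, minus strand). It had 421, 437 and 432 CPM in MN1 to MN3, 480, 406 and 304 CPM in MT1 to MT3 and 356, 431 and 363 CPM in FN1 to FN3. In FT1 to FT3 it had 314, 1143 and 264 CPM. FT2 was thus above and FT3 below every other library. The log2 fold change from FN to FT was 0.77 (SE 0.55, edgeR adjusted p = 0.994), and without FT2 it was -0.50, so its direction was set by that library.

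Timp4, known mainly from heart and brain, was barely present, with 2 to 30 reads per library (chromosome 6, 115195634 to 115201867, mm9, minus strand). It had 0.70, 1.12 and 0.80 CPM in MN1 to MN3 and 0.63, 0.83 and 3.58 CPM in MT1 to MT3. It had 3.52, 3.91 and 3.42 CPM in FN1 to FN3 and 1.23, 0.44 and 2.37 CPM in FT1 to FT3. Each FN library, FN2 included, was above each MN library and above each FT library, and MT3 was the only male library in that range. The log2 fold change from MN to FN was 2.13 (SE 0.70, unadjusted p = 0.00881, edgeR adjusted p = 0.81), and 1.90 with FN1, FN3 and MN alone (SE 0.46, edgeR adjusted p = 0.0308). From FN to FT it was -1.37 (SE 0.69, unadjusted p = 0.0671, edgeR adjusted p = 0.994). From MN to MT it was 0.92 (SE 0.71), and without MT3 it was -0.23. The difference between the sexes in the tumor effect was -2.29 (SE 0.99, unadjusted p = 0.0364, edgeR adjusted p = 1). Timp4 lies within Syn2 on the opposite strand, with no exon base shared, and Syn2 had 165 to 276 CPM. The counting strand is not stated in the sources used here, so reads from unspliced Syn2 RNA and from Timp4 cannot be told apart. MT3 also had 210 CPM of the 12 summed macrophage markers, against 19.7 to 38.4 CPM in the other 5 male libraries. That sum was 124 to 280 CPM in FN and 194 to 334 CPM in FT, where Timp4 was lower than in FN. MT3 was also the highest male library for the endothelial, fibroblast and pericyte sums. Among the 9 libraries, 28 of 36 pairs were in the same order by Timp4 and by the satellite glia or endothelial sum. By the macrophage sum it was 26, and by the myelinating Schwann cell sum 27. By the mean log2 of a list it was 29 for satellite glia, macrophages and myelinating Schwann cells, and 27 for endothelial cells. The part of these cell types in the Timp4 values was not tested.

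**Figure D3:**
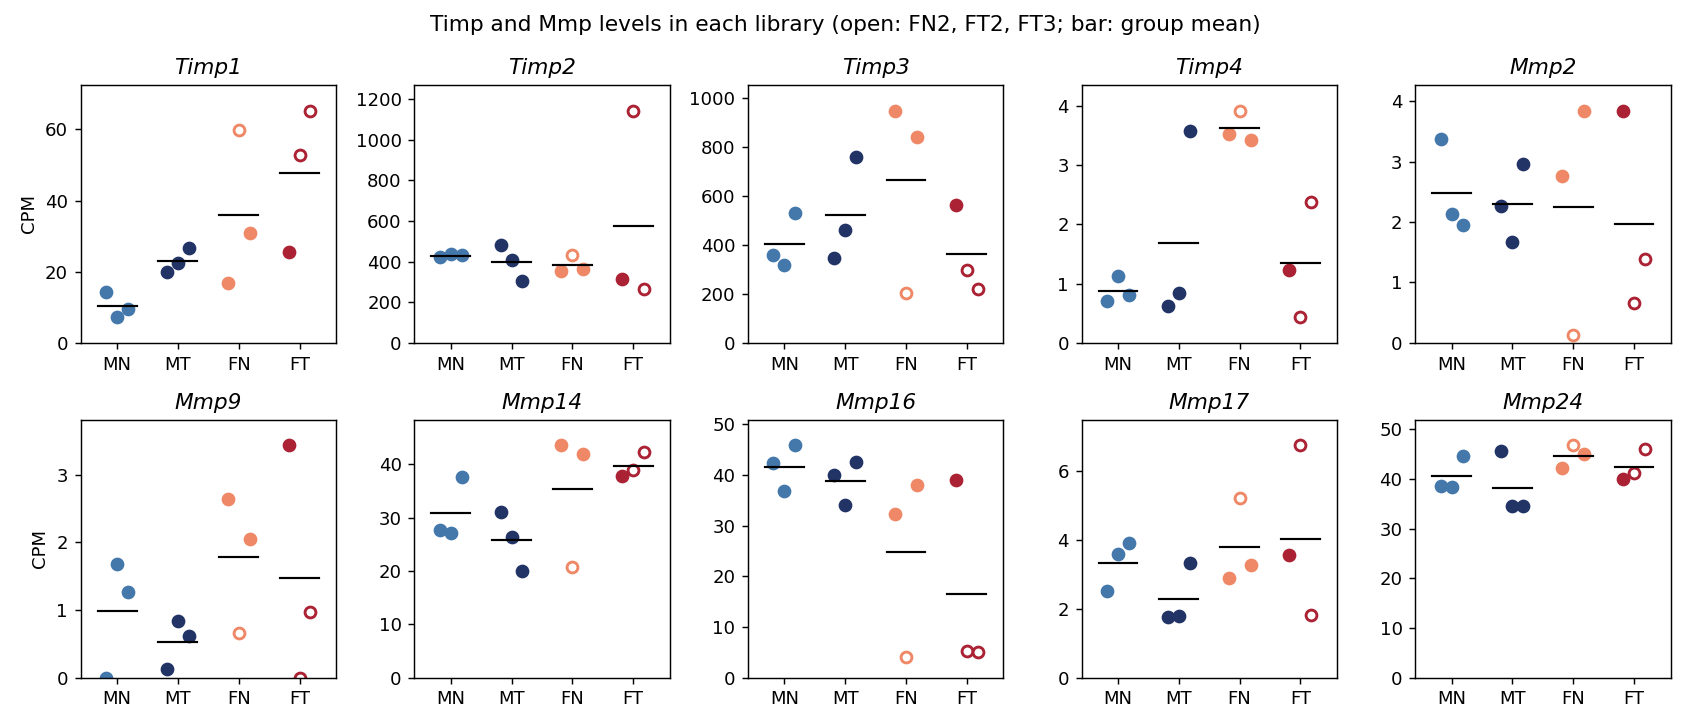
CPM (vertical axis, from 0) of the 10 genes in each library by group, with FN2, FT2 and FT3 as open points and a bar at the group mean. Timp1 lies above the MN range in all other libraries, Timp4 is high in all 3 FN libraries, Mmp16 is near 5 CPM in the open points alone, and Mmp24 is even throughout.

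Mmp24, the membrane enzyme known from nervous tissue (chromosome 2, 155601078 to 155644102, mm9, plus strand), was the most even member. It had 38.5, 38.4 and 44.6 CPM in MN1 to MN3, 45.5, 34.6 and 34.4 CPM in MT1 to MT3, 42.1, 46.7 and 44.9 CPM in FN1 to FN3 and 40.1, 41.2 and 46.0 CPM in FT1 to FT3. The SD of its log2 CPM over the 12 libraries was 0.15, and 0.296% of the 13835 genes tested had a smaller one. Over the 9 libraries the SD was also 0.15, but 24.9% of these genes had a smaller one. FN2, FT2 and FT3 were not apart from the rest for this gene. Of its 4683 exon bases 637 are shared with BC029722 on the opposite strand, which had 42.7 to 90.1 CPM, so reads in that stretch cannot be assigned without strand.

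Mmp16 (chromosome 4, 17780040 to 18046292, mm9, plus strand) was nearly as even as Mmp24 in 9 libraries, with an SD of 0.16 on log2 CPM, and several-fold lower in the other 3. It had 42.3, 36.8 and 45.8 CPM in MN1 to MN3 and 40.0, 34.0 and 42.6 CPM in MT1 to MT3. It had 32.3, 4.04 and 37.9 CPM in FN1 to FN3 and 39.0, 5.23 and 5.02 CPM in FT1 to FT3. The low values, from 24 to 36 reads, were those of FN2, FT2 and FT3. The same libraries were below all others for Timp3 and Mmp2 and above all others for Timp1. Over all genes tested 25.8% were below and 9.19% above in these 3 libraries.

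The group values of Mmp16 rested on these libraries. The log2 fold change was -0.75 from MN to FN (SE 0.68, edgeR adjusted p = 0.813), -0.53 from FN to FT (SE 0.69, edgeR adjusted p = 0.994) and -1.20 from MT to FT (SE 0.69, edgeR adjusted p = 0.456). Over the 9 libraries it was -0.30, 0.16 and -0.06 in the same order (SE 0.15, 0.20 and 0.19). Leaving out FT1, so that FT was FT2 and FT3 alone, gave -2.67 from MT to FT (SE 0.65, edgeR adjusted p = 0.0401), in a fit that called 5.48% of all genes.

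Mmp14, the membrane enzyme that activates the Mmp2 precursor (chromosome 14, 55050441 to 55060095, mm9, plus strand), was higher in each FT library than in each MT library. It had 27.7, 27.1 and 37.6 CPM in MN1 to MN3 and 31.1, 26.4 and 20.0 CPM in MT1 to MT3. It had 43.5, 20.7 and 41.9 CPM in FN1 to FN3 and 37.7, 39.0 and 42.2 CPM in FT1 to FT3. FN2 was the only female library within the MT range. The log2 fold change from MT to FT was 0.78 (SE 0.34, unadjusted p = 0.0354, edgeR adjusted p = 0.387), and 0.48 over the 9 libraries (SE 0.26). From MN to FN it was 0.25 (SE 0.33, edgeR adjusted p = 0.836), and 0.42 over the 9 libraries (SE 0.20, edgeR adjusted p = 0.35). Satellite glia markers also summed higher in each FT library, at 6627 to 17940 CPM, than in each MT library, at 3557 to 4975 CPM. Of the 8 markers 4 (Fabp7, Apoe, Kcnj10 and Sox10) did so singly, and the mean log2 of the list overlapped. So did 5 of the 12 macrophage and 3 of the 8 neutrophil markers singly. Over all genes tested 17.7% did not overlap between FT and MT, in either direction. FN2 had a satellite glia sum of 16460 CPM beside its 20.7 CPM of Mmp14. The part of these cell types in the Mmp14 values was not tested.

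Mmp17, fixed to the membrane by its lipid anchor, had 1.76 to 6.75 CPM in the 12 libraries, from 13 to 40 reads (chromosome 5, 130090089 to 130114086, mm9, plus strand). Its highest values were 6.75 CPM in FT2 and 5.22 CPM in FN2, and all 4 groups overlapped. Mmp2, the gelatinase of connective tissue cells (chromosome 8, 95351227 to 95377316, mm9, plus strand), had 1.67 to 3.84 CPM in the 9 libraries and 0.13, 0.65 and 1.39 CPM in FN2, FT2 and FT3, the last from 1, 3 and 10 reads. Mmp9, the gelatinase carried by neutrophils (chromosome 2, 164766280 to 164781350, mm9, plus strand), had 0 to 25 reads. It was at 0 in MN1, which allows up to 0.42 CPM, and in FT2, which allows up to 0.65 CPM, and highest in FT1 at 3.43 CPM and FN1 at 2.64 CPM. The 8 neutrophil markers summed to 12.0 CPM in MN1, where S100a9, Retnlg, Ngp, Camp and Ltf were at 0, but to 200 CPM in FT2. At 0 to 28 reads, a difference between groups in Mmp2 or Mmp9 was not detectable at this depth unless large. These limits, set at 3 reads, cover counting error only.

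None of the 10 members passed an adjusted p of 0.05 in any of the 6 comparisons by edgeR over the 12 libraries, nor by DESeq2. In FN versus MN 2 members (Timp1 and Timp4) had an unadjusted p under 0.05, beside 5.59% of all genes tested, and 0.0434% of all genes passed the adjusted threshold. In MT versus MN it was 1 member, Timp1, beside 0.426% of genes, with 0% past the adjusted threshold. In FT versus FN it was 0 members beside 3.82%, with 0% adjusted. In FT versus MT it was 2 (Timp1 and Mmp14) beside 12%, with 0.0434% adjusted. For the difference between the sexes it was 1 (Timp4) beside 1.47%, and for the averaged tumor effect 0 beside 1.12%, with 0% adjusted in both. DESeq2 gave the same members at an unadjusted p under 0.05, and Timp1 also in the averaged effect. In a set of 10, a single gene moves the share by more than most of these backgrounds, so little can be read from the counts.

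The groups of a few members did not overlap. In FN versus MN 2 members (Timp1 and Timp4) did not overlap, beside 19.8% of genes. In MT versus MN it was Timp1 alone, beside 13.1%. In FT versus FN it was Timp4 alone, beside 2.49%, and in FT versus MT Mmp14 alone, beside 17.7%. Without FN2, 6 members did not overlap between FN and MN, 5 of them higher in FN and Timp2 lower, beside 37.1% of genes.

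Members passed the adjusted threshold in FN versus MN in only 2 of the fits. Leaving out FN2 from the fit of 4 groups, alone or with FT2 or with FT2 and FT3, gave 0 members there. With FN1, FN3 and the MN libraries fitted alone, Timp1, Timp3 and Timp4 rose by edgeR at an adjusted p of 0.0345, 0.0017 and 0.0308, which is 3 of 10 members beside 5.61% of all genes. With limma-voom and a quality weight for each of the 12 libraries the same 3 passed, beside 6.1% of genes, and Timp1 also passed in MT versus MN (adjusted p = 0.0325), beside 0.34%. In the edgeR fit of 9 libraries no member passed the adjusted threshold. At an unadjusted p under 0.05 it gave 3 members in FN versus MN (Timp1, Timp3 and Timp4) beside 15.3% of genes, 1 in MT versus MN (Timp1) beside 7.25%, and 0 in FT versus FN beside 4.66%. In FT versus MT it gave 1, Mmp9, with a log2 fold change of 2.63 (SE 1.00, unadjusted p = 0.0219, edgeR adjusted p = 0.531), beside 8.34%, with FT1 as the lone FT library. It gave 2 in the difference between the sexes (Timp1 and Timp3) beside 5.1% and 1 in the averaged effect (Timp1) beside 6.22%. The comparisons share groups, so their calls are not independent of each other.

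**Figure D4:**
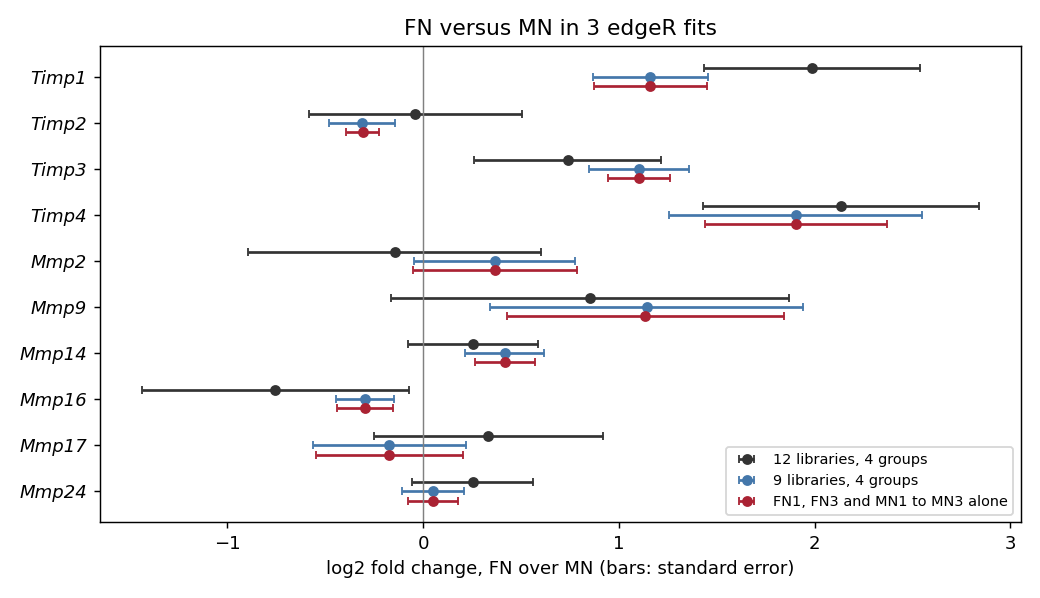
Log2 fold change from MN to FN (horizontal axis, bars for the standard error) of the 10 genes in 3 edgeR fits. Timp1, Timp3 and Timp4 lie above 0 in each fit, and the bars are shortest with FN1, FN3 and the MN libraries alone.

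Of 17 other Mmp genes, 8 never exceeded 3 reads in a library (Mmp1a, Mmp1b, Mmp3, Mmp7, Mmp10, Mmp20, Mmp21 and Mmp27), and 7 entered the test. The 2 with the highest mean were the membrane enzymes Mmp15, at 45.6 to 68.2 CPM in the 9 libraries, and Mmp25, at 26.6 to 50.1 CPM there and at 7.40 to 13.1 CPM in FN2, FT2 and FT3. In the 9 libraries Mmp14 had 20.0 to 43.5 CPM, Mmp16 32.3 to 45.8 CPM and Mmp24 34.4 to 45.5 CPM. Mmp25 overlapped these ranges. Mmp15 lay above those of Mmp14 and Mmp24 and met that of Mmp16 only at its lower end. Mmp15 and Mmp25 were named after their values were seen.

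Of 69 tested genes in 5 related lists, edgeR called 0 in each of the 6 comparisons over 12 libraries at an adjusted p under 0.05. The lists were 7 other Mmp genes, 11 ADAM genes, 14 ADAMTS genes, 19 activators, other inhibitors and receptors, and 18 basement membrane substrates. Some ADAM enzymes shed proteins from the cell surface, and some ADAMTS enzymes cut matrix proteoglycans. At an unadjusted p under 0.05 the counts were 5 higher in FN versus MN, beside 5.59% of all genes in either direction, and 1 higher in MT versus MN, beside 0.426%. They were 2 higher in FT versus FN, beside 3.82%, and 10 higher with 5 lower in FT versus MT, beside 12%. The single gene in MT versus MN was Mmp8, a neutrophil collagenase, at 0.38 ± 0.40 CPM in MN and 1.64 ± 1.35 CPM in MT (SD, n = 3). The 2 in FT versus FN were Adamts17 and Adamts20, both below 8 CPM in every library. No gene of these lists met the rule for naming, a mean above 10 CPM beside such a p in a tumor comparison, so these were named after their values were seen. DESeq2 called Adamts20 in FT versus MT, in a fit that called 259 of 13835 genes there. Adamts20 had 1.78, 7.19 and 1.67 CPM in FT1 to FT3, from 13, 33 and 12 reads, and 0.38, 0.83 and 0.49 CPM in MT1 to MT3. Its highest value was thus in FT2, which stood apart. The weighted limma-voom fit called 7 of the 69 in FN versus MN, beside 6.1% of all genes, which were Adamts1, Adamts5, Adamts8, Cd63, Serpine2, Lamc1 and Adam22, and 0 in the other comparisons. With FN1, FN3 and the MN libraries fitted alone, edgeR called 5 of 67 higher and 3 lower, beside 5.61% of all genes. These were Adam22, Adam23, Adamts1, Adamts5, Adamts8, Cd63, Plat and Serpine2. In the edgeR fit of 9 libraries Cd63 alone was called in FN versus MN, where 63 of 14320 genes passed.

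The median log2 fold change of the 10 members was 0.29 in FN versus MN, -0.09 in MT versus MN and -0.04 in FT versus FN, beside 0.07, 0.01 and -0.06 over all genes tested. The 11 ADAM genes had medians of -0.49, -0.12 and -0.24 in the same comparisons, and the 18 basement membrane substrates 0.20, -0.06 and -0.15.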

How the data were processed

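RNA-seq libraries were prepared from sorted WGA-labelled trigeminal neurons by SMART-seq2, in 4 groups of 3 libraries. Per the labels, the authors called bases with CASAVA 1.8.2, and the notes also name TopHat2, SAMtools, HTSeq and the build mm9. They deposited raw counts per gene, with no normalization. The counting strand is not given in the sources used here. Rows that name no gene, among them multimapped reads, made up 76.3% to 88.8% of all reads and entered neither library sizes nor tests.

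Counts were tested with edgeR 4.0.16 (R 4.3.3): TMM, filterByExpr with a count minimum of 10, a quasi-likelihood test with 1 mean per group over all 12 libraries, and Benjamini-Hochberg adjustment over 13835 genes. DESeq2 1.42.0 and limma 3.58.1 (voom with sample weights) were alternatives, beside other scalings, filters and sets of libraries. RPKM used GENCODE M1 exon lengths, and 95.7% of the 22609 symbols matched that annotation. A prior count of 2 entered log2 CPM. Scripts were tested on simulated data. Libraries were pools of mice, so p-values measure the spread between pools.

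The members and lists were chosen with earlier results of these data known. All members were to be named in each comparison, list genes only with an unadjusted p under 0.05 in a tumor comparison and a group mean over 10 CPM, at most 3 per list, and the 5 genes nearest to Timp1.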

Additional observations from a re-analysis of the deposited data

How the results depend on the processing

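The number of members with an adjusted p under 0.05 was 0 in each comparison over the 12 libraries and stayed 0 under the alternatives, apart from the following. It was 3 in FN versus MN and 1 in MT versus MN with weighted limma-voom, 3 in FN versus MN with FN1, FN3 and the MN libraries alone (a setting added after the data were seen), and between 0 and 1 in FT versus MT when each library was left out in turn, the 1 being Mmp16 without FT1. Of the 19 log2 fold changes reported, 415 of 430 alternative values kept direction and side of the threshold. Timp2 in FT versus FN reversed over 10 libraries (-0.22), over 9 (-0.19) and with FN1, FN3, FT1 and FT3 alone (-0.19), and ran from -0.50 to 1.15 with single libraries left out. Mmp16 in FT versus FN reversed over 9 libraries (0.16). With single libraries left out, Timp4 in MT versus MN ran from -0.23 to 1.29 and the difference between the sexes in Timp1 from -1.10 to 0.088 (without FN2). Timp2 over Timp3 had a median of 2.14 in RPKM and 1.03 in CPM. The shift of the median of all genes between scalings was at most 0.14, in FT versus MT. The cause of these changes was not tested.

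Replicate numbers did not pair the libraries: deviations of same-numbered libraries correlated between -0.35 and 0.57. With the replicate block, 0 members were called in each comparison.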

Other observations

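Of the 69 related genes tested, 13 did not overlap between FN and MN, beside 19.8% of all genes. The count is near that share, so nothing particular to these lists can be read from it. In FN 5 of the 13 were higher (Mmp8, Adamts5, Serpine2, Cd63 and Sparc) and 8 lower. The 3 given here are all from the higher ones and were picked out after their values were seen. Cd63, a membrane protein of endosomes that binds Timp1, had 38.6 ± 1.62 CPM in MN and 102 ± 54.7 CPM in FN (SD, n = 3), with FN1, FN2 and FN3 at 68.8, 165 and 72.2 CPM. Its log2 fold change from MN to FN was 1.59 over 12 libraries (SE 0.49, edgeR adjusted p = 0.81) and 0.82 over 9. Serpine2, an inhibitor of serine proteases, had 68.5 ± 13.5 CPM in MN and 114 ± 26.3 CPM in FN, and Adamts5, an enzyme that cuts the proteoglycan aggrecan, had 22.9 ± 1.05 CPM in MN and 36.7 ± 4.64 CPM in FN (SD, n = 3 each). The log2 fold changes of Serpine2 and Adamts5 over 12 libraries were 0.82 (SE 0.37) and 0.77 (SE 0.36), both with an edgeR adjusted p of 0.81. With FN1, FN3 and the MN libraries alone, a setting added after the data were seen, Cd63, Serpine2 and Adamts5 passed the adjusted threshold by edgeR.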
